A study of Mus musculus with 3 samples.

Results

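The transcriptome of cFLIP KO epidermis was compared here with that of TNF KO epidermis, gene by gene and then pathway by pathway over the whole genome. The comparison used 2 of the 3 arrays of the series. Its members were all rows that carried a gene symbol, 24015 of 24973, which gave 24011 genes. The measure for each gene was the log2 value in cFLIP KO minus the log2 value in TNF KO. cFLIP KO mice carried cFLIP fl/fl alleles and the K14CreERtam transgene, a tamoxifen-inducible Cre recombinase driven by the keratin 14 promoter of basal keratinocytes. TNF KO mice (TNF-/-) lacked TNF in every cell and kept cFLIP, and no Cre transgene is given for them. The remaining array was of mice with the floxed alleles, the Cre and the TNF deletion together (cFLIP KO/TNF KO, here the double KO), and its level is quoted beside the comparison. Values given for a gene in a row of 3 are log2 signals in the order TNF KO, cFLIP KO, double KO, and values in a pair are those of TNF KO and cFLIP KO. Back skin of all animals was epilated and painted with tamoxifen, and epidermis was taken 72 h after the first application and separated from the dermis by heat. Per the labels, RNA of 4 animals was pooled into 1 array per genotype after 3 days of tamoxifen, and the methods text gives ranges for both numbers. There was thus no replicate error and no test, and "higher" and "lower" describe the pools only. The genotypes differed in cFLIP, in TNF and, as far as stated, in Cre, and the effects of these cannot be told apart in this pair.

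cFLIP is a catalytically inactive relative of caspase-8 that keeps death receptor complexes and the ripoptosome from killing the cell. Keratinocytes that die or are injured release alarmins, which call neutrophils and macrophages through NF-kB-driven chemokines, and wound keratinocytes turn on stress keratins, proteases and growth factors. In healthy epidermis keratinocytes instead leave the basal layer, stop dividing and cornify, a program that loads the cell with envelope proteins, desquamation proteases and the lipids of the water barrier.

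The arrays were first checked against their labels. Krt14 and Krt5, the basal keratin pair that defines keratinocytes, were among the brightest genes, Krt5 with 12.93, 12.50 and 13.02, and Krt14 with 12.98 in cFLIP KO and a difference of -0.02 from TNF KO. Cflar, the gene of cFLIP, was at 7.0, 6.29 and 6.53, and Tnf was at 5.11, 5.79 and 5.21. It is not known whether the probes of these genes lie inside the deleted parts, so they check the genotype only weakly. Xist, the RNA of the inactive X chromosome, was at 8.58, 4.62 and 8.98. The Y-linked genes Eif2s3y (6.73, 6.08 and 5.14) and Uty (5.74, 5.37 and 5.37) did not run opposite to it, and the sexes of the pooled animals cannot be read from these values. The part of sex in the differences was not tested.

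Read as deposited, 932 genes (3.88%) stood at least 2-fold above TNF KO in cFLIP KO, and 2198 (9.15%) stood at least 2-fold below it. Bright genes as a whole lay low on the cFLIP KO array. Over 10 equal groups of genes ordered by signal, the median difference was 0.21 in the 5th group and -0.74 in the brightest. A lowess curve of difference against mean signal, which ran from 0.22 down to -0.81, was therefore subtracted, and the corrected difference is given beside the deposited one. Subtracting the trend left 937 genes (3.9%) past 2-fold above and 1189 (4.95%) past 2-fold below TNF KO, and 730 and 1151 genes were past 2-fold on both scales. Dim genes can hardly reach 2-fold, so the shares for the 12956 brighter genes, those that reached the median of all deposited values (4.23) in either pool, are the fairer background for most lists. There, 6.85% were higher and 16.9% lower as deposited, and 7.15% were higher and 9.12% lower after the trend. Exactly equal values stood on both arrays for 5559 genes (23.2%). Such a gene gets a corrected difference of up to 0.81 from the trend alone, which is short of 2-fold and measures nothing about that gene. The double KO lay closer to TNF KO as deposited. Its values were at least 2-fold higher for 151 genes, at least 2-fold lower for 54 and exactly equal for 12618. A double KO level near that of TNF KO therefore holds for most genes.

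**Figure D1:**
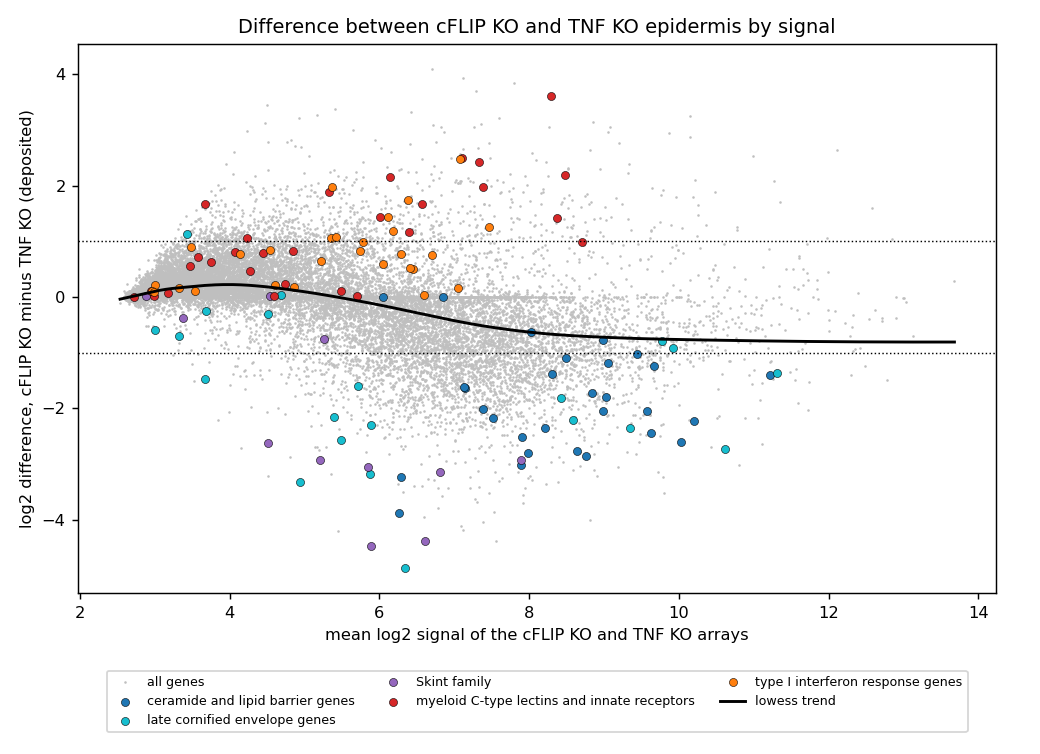
Log2 difference between cFLIP KO and TNF KO as deposited (vertical axis) against the mean log2 signal of both arrays (horizontal axis), 1 point per gene, with the lowess trend as a line, 2-fold as dotted lines and 5 gene lists in colour. The trend falls to -0.81 for bright genes, barrier lists lie below it and innate receptors and interferon response genes lie mostly above it.

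Of 78 gene lists that cover cell death, cytokines, innate defence, cell types, epidermal structure, repair, growth, stress and metabolism, 77 had measured members. A list was called higher or lower only where its median difference passed 1.5-fold (0.58 on the log2 scale) in the same direction on both scales. That held for 10 lists. Higher in cFLIP KO were neutrophil markers, the myeloid C-type lectins and innate receptors, the Schlafen family and type I interferon response genes. Lower were the Skint family, late cornified envelope genes, ceramide and lipid barrier genes, S100-fused-type and other envelope scaffold genes, kallikreins and desquamation genes, and mitosis genes. As deposited, 17 lists were past 1.5-fold lower, and 11 of them were not past it after the trend. Among the latter were aminoacyl-tRNA synthetase genes, with a median of -0.76 as deposited and -0.06 after the trend, and proteasome subunit genes, with -0.69 and -0.08.

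**Figure D2:**
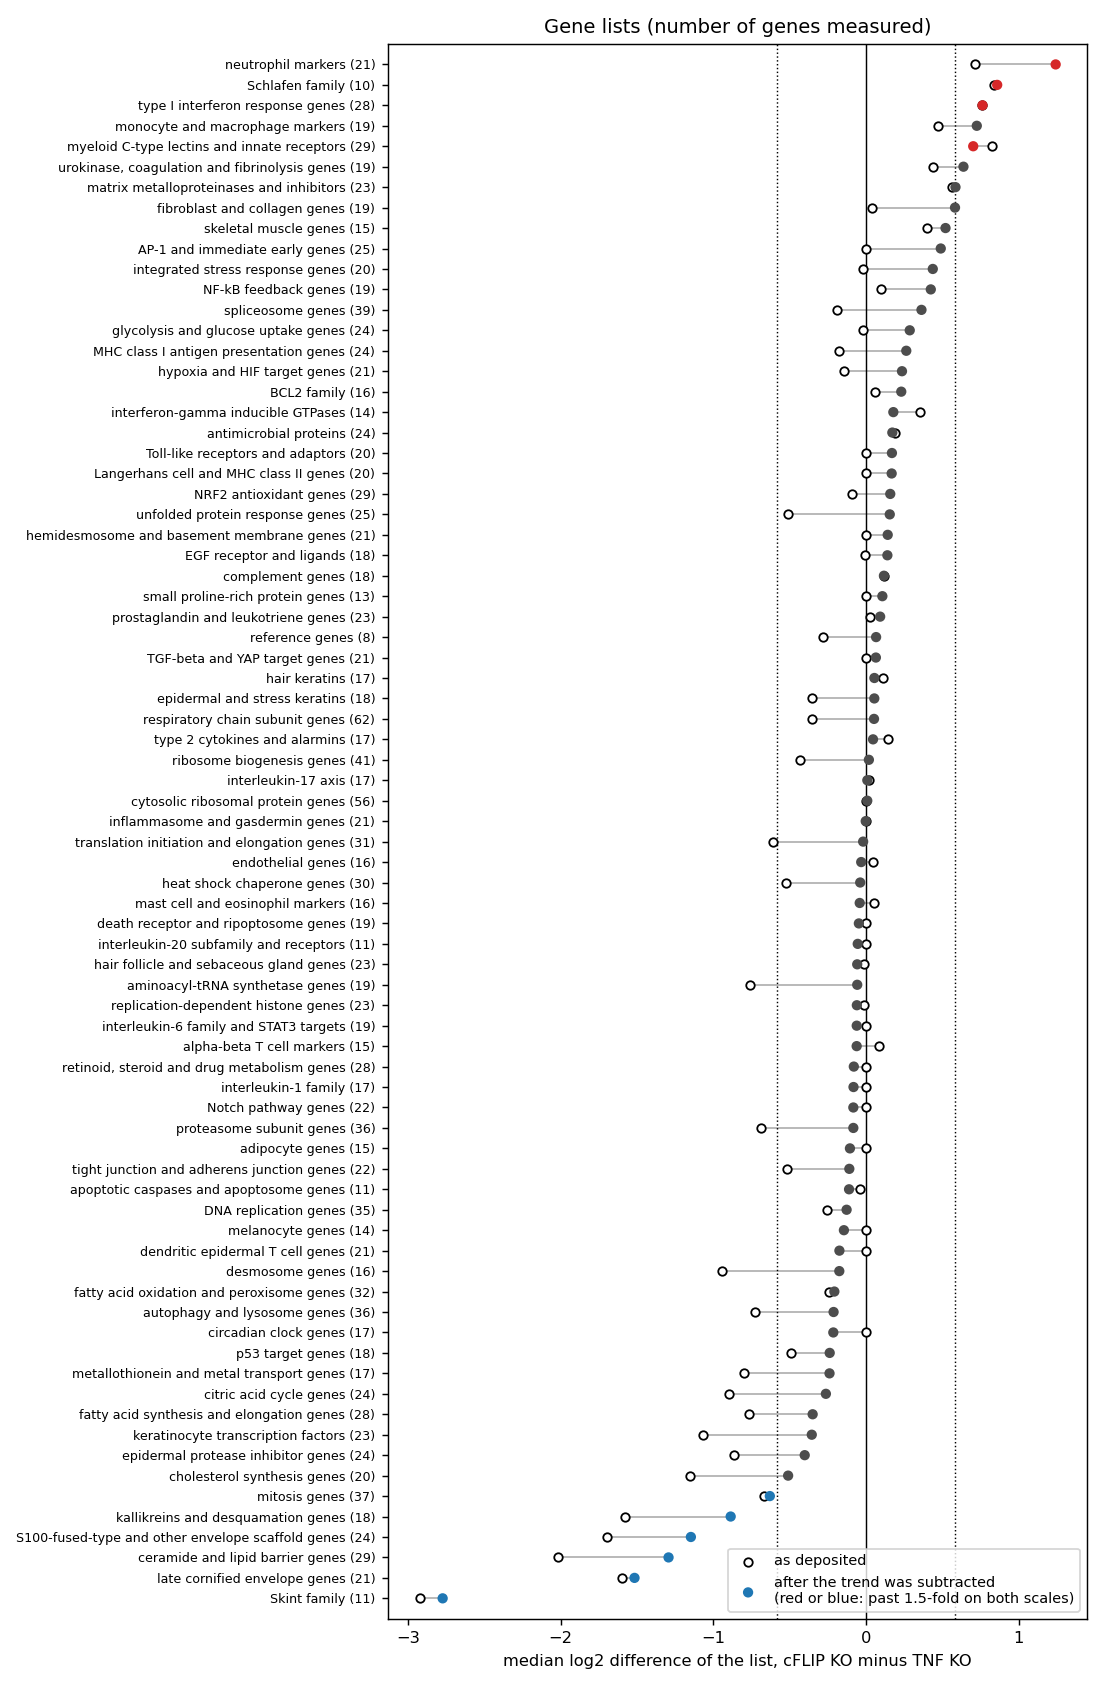
Median log2 difference between cFLIP KO and TNF KO of every measured list other than the sex-linked genes, as deposited (open circles) and after the trend was subtracted (filled circles), with the number of measured genes in parentheses and dotted lines at 1.5-fold. The Skint family (-2.92 and -2.77) lies lowest, and housekeeping lists such as proteasome subunit genes move from -0.69 to near 0.

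Pattern receptors of myeloid cells were higher in cFLIP KO epidermis. Of 29 measured C-type lectins, TREM family members and related innate receptors, 13 were at least 2-fold higher and none was at least 2-fold lower on either scale, with medians of 0.83 as deposited and 0.70 after the trend. Clec7a, the beta-glucan receptor dectin-1, had values of 6.49, 10.10 and 8.96. Clec4e, the lectin Mincle that recognises mycobacterial glycolipid and a ligand of dead cells, was at 5.85, 8.35 and 5.82. For its partner Clec4d the values were 7.38, 9.58 and 7.29, so both lectins stood high in cFLIP KO and at the TNF KO level in the double KO. A pair of adaptors, each used by some receptors of this list, was higher as well, Tyrobp (DAP12) with 6.12, 8.55 and 7.16, and Fcer1g with 7.67, 9.09 and 8.74. Trem1 was at 6.39, 8.37 and 6.57, and Cd14, the lipopolysaccharide coreceptor, at 8.71, 11.58 and 8.49. Dim members such as Clec9a (2.90 and 3.00 in TNF KO and cFLIP KO) and Clec12a (3.14 and 3.22) lay near the bottom of the scale on both arrays.

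Neutrophil markers stood high on the same array, and no other list of leukocyte markers passed 1.5-fold on both scales. Neutrophil markers had a median difference of 0.71 as deposited and 1.24 after the trend, with 9 and 12 of 21 members at least 2-fold higher and none lower. Their summed linear signal was 6272, 12465 and 7120. Of the defining pair, Csf3r, the receptor of granulocyte colony-stimulating factor, was at 5.36, 6.54 and 5.53, whereas Ly6g stood at 2.79 on all 3 arrays. The granule genes Elane (3.40 and 3.42), Camp (2.91 and 3.17) and Ngp (2.88 and 3.40) were near the floor in both. Among the high members were S100a9 (8.83 and 10.75) and Mmp9 (6.96 and 8.97), which keratinocytes and macrophages can express too. Monocyte and macrophage markers had medians of 0.47 and 0.72 with 6 and 8 of 19 members at least 2-fold higher, and their summed signal was 2457, 7461 and 4463. Among them were Fcgr1, a high-affinity IgG receptor (5.29 and 6.73), and the lysosomal Cd68 (7.05 and 8.01). The defining macrophage genes Adgre1 (6.27) and Csf1r (7.63) were listed at the same value in TNF KO and cFLIP KO. With members at equal values left out, monocyte and macrophage markers had medians of 0.92 as deposited and 1.14 after the trend. Neutrophil markers then had 0.77 and 1.24, so the lists differed little on this measure. In pooled tissue RNA, more cells of a type and more RNA per cell cannot be told apart, and the part of leukocyte number in the receptor values was not tested.

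Single genes of acute inflammatory signalling stood high in cFLIP KO. Cxcl3, a neutrophil chemokine, had the largest corrected difference of all brighter genes, with 4.66, 8.75 and 5.75, 17.1-fold between the pair. Acod1, which makes the macrophage metabolite itaconate, was at 6.0, 9.21 and 6.73. Osm, the cytokine oncostatin M that acts on keratinocytes, was at 5.33, 7.80 and 6.31, and Socs3, a feedback inhibitor of its signal, was at 6.04, 7.07 and 6.62. Of 19 NF-kB feedback genes, 3 were at least 2-fold higher after the trend and none lower. Tnfaip3 (A20), which removes ubiquitin signals upstream of NF-kB, was at 6.50, 8.04 and 7.21, Ier3 at 9.03, 10.21 and 9.33, and Nfkbia, the inhibitor IkBa, at 9.14, 9.82 and 9.46. The list had medians of 0.10 and 0.42, and Rel, an NF-kB subunit, was lower (8.02 and 6.91). In the BCL2 family the antiapoptotic Bcl2a1b (5.38, 8.35 and 6.21) was high in cFLIP KO, as was its dim neighbour copy Bcl2a1a (2.90, 4.10 and 3.31), and none of the other 14 measured members was past 2-fold on either scale. The inflammasome sensor Nlrp3 was at 4.22, 6.46 and 4.54.

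The stretch upstream of the start site is printed for 4 of these genes, because they were among the members that stood high in cFLIP KO and because they held the NF-kB motif GGANTTTCC there on one strand or the other. Sequences are those of RefSeq on GRCm38.p6, read 5′ to 3′ on the strand of the gene and ending at the base before its annotated start, with the motif in capitals.
Cxcl2 upstream, chr5:90903789-90903898, plus strand: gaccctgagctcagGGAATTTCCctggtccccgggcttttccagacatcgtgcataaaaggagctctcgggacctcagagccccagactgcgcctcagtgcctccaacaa
Cxcl3 upstream, chr5:90785991-90786100, plus strand: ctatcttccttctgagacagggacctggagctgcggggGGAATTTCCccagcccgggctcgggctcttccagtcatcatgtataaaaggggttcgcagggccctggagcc
Acod1 upstream, chr14:103046902-103047011, plus strand: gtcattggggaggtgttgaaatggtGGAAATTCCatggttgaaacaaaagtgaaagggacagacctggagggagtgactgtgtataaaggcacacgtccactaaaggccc
Tnfaip3 upstream, chr10:19015411-19015520, minus strand: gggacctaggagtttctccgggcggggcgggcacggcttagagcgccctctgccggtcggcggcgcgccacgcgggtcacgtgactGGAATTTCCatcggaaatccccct
In Cxcl2 the motif began 96 bases before the start and in Cxcl3 72 bases before it. In Acod1 it began 85 bases before the start and lay on the other strand, so it is printed as its reverse complement. In Tnfaip3 it began 24 bases before the start. Cxcl2, a ligand of the same receptor as Cxcl3, was at 7.57, 10.53 and 7.73.

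The same motif (both strands), and those of AP-1 (TGANTCA, both strands) and of the TATA box (TATAAA, gene strand only), were counted in the 250 bases upstream of genes. The genes were the protein-coding ones at or above the median signal that had a promoter entry, olfactory and vomeronasal receptors left out. A gene was counted once if any of its start sites held the motif. The NF-kB motif was upstream of 17 of 438 genes at least 2-fold higher after the trend (3.88%), of 8 of 946 genes at least 2-fold lower (0.846%) and of 135 of all 9461 (1.43%). The TATA box was upstream of 14.2% of the higher genes, 5.39% of the lower genes and 5.67% of all. The AP-1 motif was upstream of 44 of the 438 higher genes, 69 of the 946 lower genes and 581 of all 9461. Over all 14736 protein-coding genes with a promoter entry, dim ones included but the same receptors left out, the shares were 1.38% for NF-kB, 6.85% for AP-1 and 7.49% for the TATA box. These shares describe letters in a window and not binding.

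Cytokine genes did not move as one. Il1b was at 9.73, 12.26 and 10.46, and its natural antagonist Il1rn at 8.01, 9.10 and 8.06. Il18, another caspase-1 substrate of the same family, was at 9.77, 6.07 and 9.16, and Casp1 itself at 5.60, 4.53 and 6.02. Among 17 measured genes of the interleukin-1 family, 3 were past 2-fold higher and 4 past 2-fold lower after the trend, around medians of 0.00 and -0.08. Of 11 measured interleukin-20 subfamily and receptor genes, 2 were past 2-fold higher and 3 past 2-fold lower on either scale, around medians of 0.00 and -0.05. The cytokines Il24 (5.15, 9.09 and 8.48) and Il19 (3.72, 7.09 and 7.94) were high in both cFLIP-deficient pools. Low in cFLIP KO were the receptor chains Il20rb (9.23, 5.70 and 8.87), Il20ra (7.41, 5.75 and 7.22) and Il22ra1 (8.66, 6.82 and 8.34). In the Toll-like receptor list, Cd14 stood high while Ly96 (MD-2), which holds the lipopolysaccharide for Tlr4, was at 7.68, 4.94 and 7.41, and Irak3, an inhibitor of the pathway, at 8.07, 5.81 and 7.45. Of 24 measured antimicrobial protein genes, 6 were past 2-fold higher and 1 past 2-fold lower after the trend. The induced beta-defensin Defb14 (5.35, 6.95 and 4.88) was high in cFLIP KO, whereas the peptidoglycan recognition protein Pglyrp3 (8.01, 6.34 and 7.79) was low. The constitutive Defb1 (8.39, 7.09 and 7.84) was past 2-fold lower as deposited only, with differences of -1.31 and -0.72.

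Death receptor and ripoptosome genes as a group did not stand apart, with medians of 0.00 and -0.05 over 19 measured genes. Casp8, the initiator caspase held by cFLIP, was at 7.99, 6.30 and 7.94, so of the 3 arrays it was low in cFLIP KO. Its corrected difference of -1.23 was the lowest of the list, and Rbck1 (HOIL-1), a subunit of the linear ubiquitin ligase, followed with 6.72, 5.56 and 6.72. Tnfrsf1b, the second TNF receptor, was at 5.03, 6.90 and 6.19, and Zbp1, a nucleic acid sensor that can trigger necroptosis, at 4.83, 6.44 and 7.03. Apoptotic caspases and apoptosome genes had medians of -0.04 and -0.11, with Casp2 (7.12 and 6.10) furthest from 0. The skin gasdermins Gsdma (9.97, 8.08 and 9.72) and Gsdmc3 (5.53, 3.46 and 6.01), relatives of the pore protein of pyroptosis, were low in cFLIP KO.

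**Figure D3:**
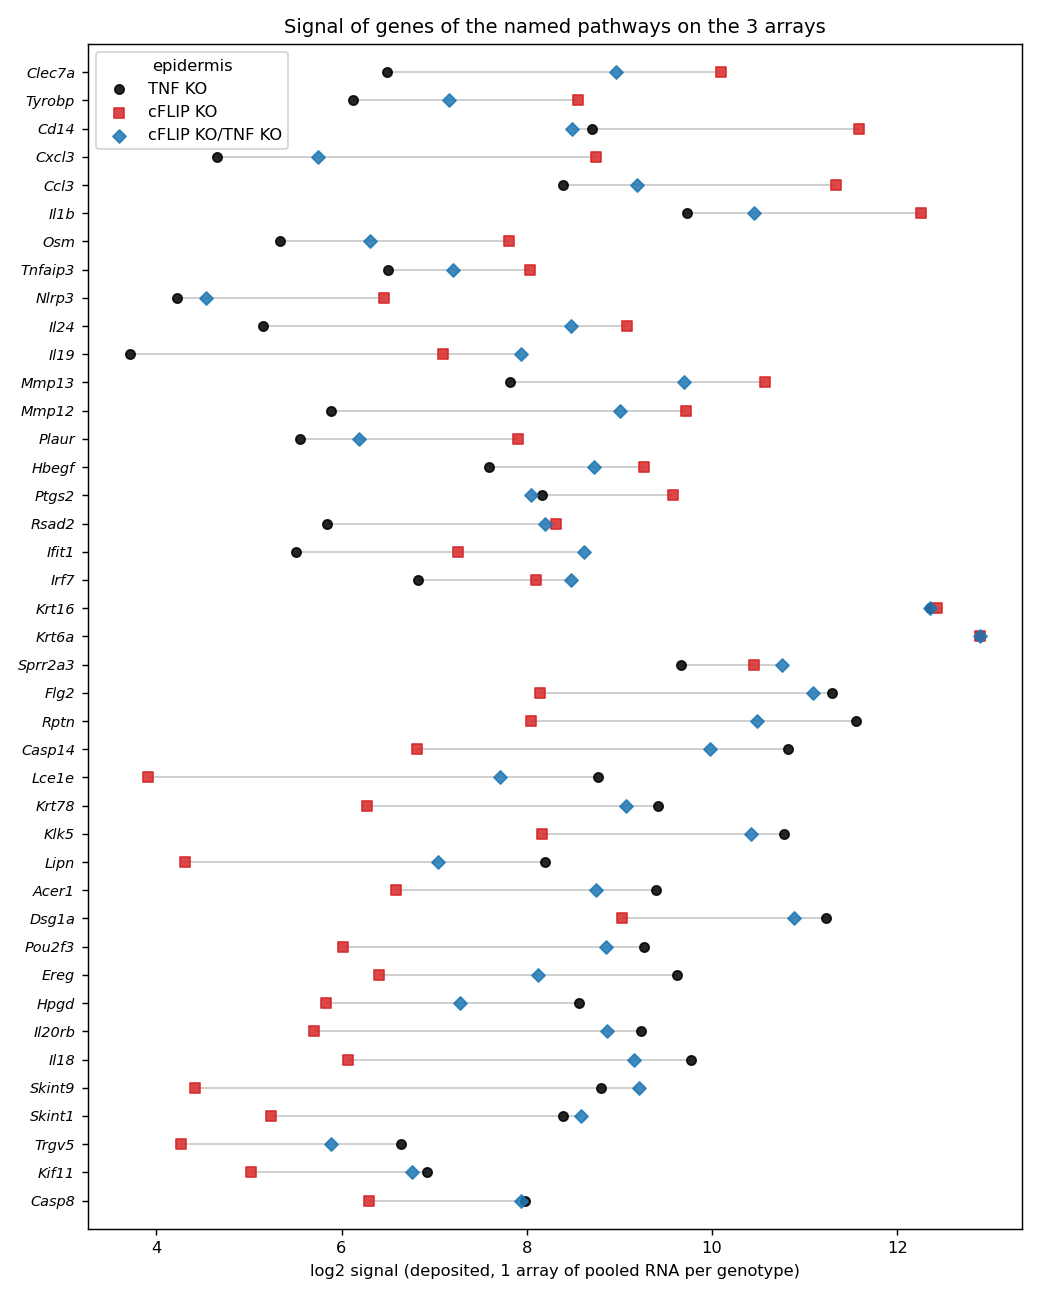
Deposited log2 signal (horizontal axis) of 41 genes of the named pathways in TNF KO (black circles), cFLIP KO (red squares) and the double KO (blue diamonds) epidermis, 1 array each. Myeloid and inflammatory genes lie to the right in cFLIP KO (Clec7a at 10.10 against 6.49), and barrier genes lie to the left (Lce1e at 3.91 against 8.77), while the 3 arrays nearly coincide at Krt16 and coincide at Krt6a.

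Type I interferon response genes stood above TNF KO in both cFLIP-deficient pools. The list's median was 0.76 above TNF KO in cFLIP KO on both scales and 1.16 above it, as deposited, in the double KO, and none of the 28 measured genes was listed at an equal value in the main pair. After the trend, 10 were at least 2-fold higher and none at least 2-fold lower. Rsad2 (viperin), an antiviral enzyme, was at 5.84, 8.32 and 8.20. Ifit1, which binds foreign RNA caps, was at 5.51, 7.26 and 8.62, and Irf7, the transcription factor that amplifies the response, at 6.83, 8.10 and 8.48. Oasl2 and Rtp4 showed the same order, with 5.40, 6.83 and 7.82 for Oasl2 and 5.59, 6.78 and 7.74 for Rtp4. Mx1 (2.90, 3.12 and 3.75) and Oas1a (2.95, 3.04 and 4.11) were dim in the main pair. The order of the cFLIP-deficient pools was not tested and rests on 1 array each.

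The Schlafen genes, several of them interferon-inducible in immune cells, were counted apart from that list. Of 10 measured, 5 were past 2-fold higher and 1 past 2-fold lower. Slfn4, a myeloid member, was at 7.29, 10.43 and 8.68, and Slfn2, which keeps leukocytes quiescent, at 6.81, 8.77 and 8.70. Slfn9 was the exception with 6.51, 4.53 and 7.09. Interferon-gamma inducible GTPases were less far from 0, with medians of 0.35 and 0.18 and with Gbp2 (5.47, 7.52 and 7.76) as the highest. MHC class I genes had medians of -0.18 and 0.26. Within them the classical H2-K1 (10.25, 10.15 and 10.92) differed little between the main pair, while the nonclassical H2-Q7 was at 6.57, 3.82 and 7.73, and Nlrc5, the transactivator of class I genes, at 6.98, 5.40 and 7.04. The class I genes are near-identical over long stretches, so their signals may share copies and are uncertain one by one.

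Tissue remodelling genes were higher in part. Matrix metalloproteinases and inhibitors had medians of 0.56 and 0.58, short of the 1.5-fold line as deposited, with 8 of 23 at least 2-fold higher and none lower after the trend. Mmp13, a collagenase of wound edges, was at 7.82, 10.58 and 9.70, and Mmp12, the macrophage elastase, at 5.88, 9.72 and 9.0. Mmp3 (6.29, 7.92 and 7.36) and Mmp10 (5.46, 7.08 and 5.62), a pair of stromelysins, were also high in cFLIP KO. Of 19 urokinase, coagulation and fibrinolysis genes, 6 were at least 2-fold higher after the trend and none lower, with medians of 0.44 and 0.64. Plaur, the urokinase receptor, was at 5.55, 7.90 and 6.19, and Thbs1, the matricellular protein thrombospondin-1, at 8.62, 10.02 and 8.97.

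Growth factor genes of the EGF family split. Hbegf, a ligand of migrating wound keratinocytes, was at 7.59, 9.26 and 8.73, and Nrg1, a ligand of ErbB3, at 6.15, 7.44 and 6.58, so both were high in cFLIP KO. Ereg (epiregulin) was at 9.62, 6.40 and 8.12 and the receptor gene Erbb3 at 9.0, 7.11 and 8.73, so both were low. In prostaglandin metabolism the synthesis gene Ptgs2 (COX-2) was at 8.17, 9.57 and 8.04, and Hpgd, which degrades prostaglandins, at 8.56, 5.83 and 7.27. Immediate early genes had a median of 0.00 as deposited and 0.49 after the trend, with Atf3 (6.72, 7.83 and 7.07) and Zfp36 (8.38, 9.21 and 8.57) high and Egr3 (8.46, 6.47 and 7.81) low.

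Barrier genes were low in cFLIP KO epidermis. S100-fused-type proteins and other envelope scaffold genes had medians of -1.70 as deposited and -1.15 after the trend, with 16 and 13 of 24 members at least 2-fold lower and only Arg1 higher. Rptn (repetin) was at 11.56, 8.04 and 10.48. Flg2 (filaggrin-2) was at 11.29, 8.15 and 11.09, and Hrnr (hornerin) at 12.32, 9.29 and 11.78. Casp14, the caspase of the granular layer, had the lowest corrected difference of the list, -3.29. Not all scaffold genes were low, since Tgm1, the membrane transglutaminase that cross-links them, was at 10.02, 9.29 and 9.82 and lay at 0.02 after the trend. Arg1, listed here as an enzyme of the granular layer, is also a gene of alternatively activated macrophages, and was at 6.74, 9.33 and 8.36.

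Late cornified envelope genes, a cluster that encodes small cross-linked proteins, had medians of -1.60 and -1.52 with 12 of 21 at least 2-fold lower after the trend and none higher. As deposited, the dim Lce1g (2.87 and 4.00) was the 1 member past 2-fold in the other direction. Lce1e was the lowest of all brighter genes, with 8.77, 3.91 and 7.71. The Lce3 members did not move as one. Lce3e (6.60, 3.28 and 3.90) and Lce3f (6.77, 4.20 and 4.34) were low in both cFLIP-deficient pools, whereas Lce3c (10.17, 9.38 and 8.38) and Lce3d (10.38, 9.46 and 8.53) were lowest in the double KO. Small proline-rich protein genes, the other envelope family of the same locus, had medians of 0.00 and 0.11, and after the trend 3 of 13 were past 2-fold higher and none past 2-fold lower, against 7.15% and 9.12% of genes at or above the median signal. With other trend fits the corrected median ranged from -0.03 to 0.62. Sprr2a3 was at 9.67, 10.45 and 10.76, and Sprr2f (3.90, 5.43 and 4.10) was high from a dim level, whereas Sprr4 (8.56, 7.08 and 9.05) was past 2-fold lower as deposited only. Members within each of these families are close copies, and the signal of one may hold that of its neighbours.

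The 60 bases upstream of 5 genes with a TATA box are printed here, 3 from the low envelope genes and 2 from the high alarmin genes, because the same motif stood upstream of genes that differed in opposite directions. The motif is in capitals, and strand and source are as above.
Rptn upstream, chr3:93393639-93393698, plus strand: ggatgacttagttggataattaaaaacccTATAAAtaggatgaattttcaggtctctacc
Hrnr upstream, chr3:93319689-93319748, plus strand: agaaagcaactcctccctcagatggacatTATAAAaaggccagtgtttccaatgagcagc
Lce1m upstream, chr3:93019062-93019121, minus strand: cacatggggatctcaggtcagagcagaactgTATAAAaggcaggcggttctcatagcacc
S100a8 upstream, chr3:90669011-90669070, plus strand: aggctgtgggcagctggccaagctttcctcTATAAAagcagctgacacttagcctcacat
Il1b upstream, chr2:129371140-129371199, minus strand: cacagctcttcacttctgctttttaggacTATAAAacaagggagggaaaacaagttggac
In all 5 the motif began between 29 and 31 bases before the annotated start. Lce1m was at 9.69, 7.48 and 9.70, and S100a8, an alarmin subunit, at 9.52, 10.99 and 10.01.

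Gene order was then read without any list. The median corrected difference was taken in windows of 10 neighbouring measured protein-coding genes, 19452 in all, and windows past 2-fold that overlapped were joined into 7 runs. The longest ran over 38 genes from Sprr3 to S100a10, the epidermal differentiation complex, with a median of -1.32, 21 genes at least 2-fold lower and none higher. A run of 16 genes around the Skint cluster held the lowest window, at -2.79, and had a median of -0.68 over the whole run. On the high side, a run of 15 genes held a window at 1.38 that spans the CC chemokine genes Ccl9 (7.37 and 9.66), Ccl6 (5.37 and 7.60), Ccl3 (8.39 and 11.34) and Ccl4 (5.73 and 8.79). The median over all 15 genes was 0.20, with 5 genes at least 2-fold higher and 1 lower. The other runs were a pair of lower ones, from Synj2bp to Rbm25 and from Zc3h12c to Slc35f2, and a pair of higher ones in the interferon-alpha and Vmn1r clusters. Vmn1r genes encode pheromone receptors of the nose, and both of these higher runs consist mostly of near-identical copies. Neighbouring copies within a run are not independent of each other.

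**Figure D4:**
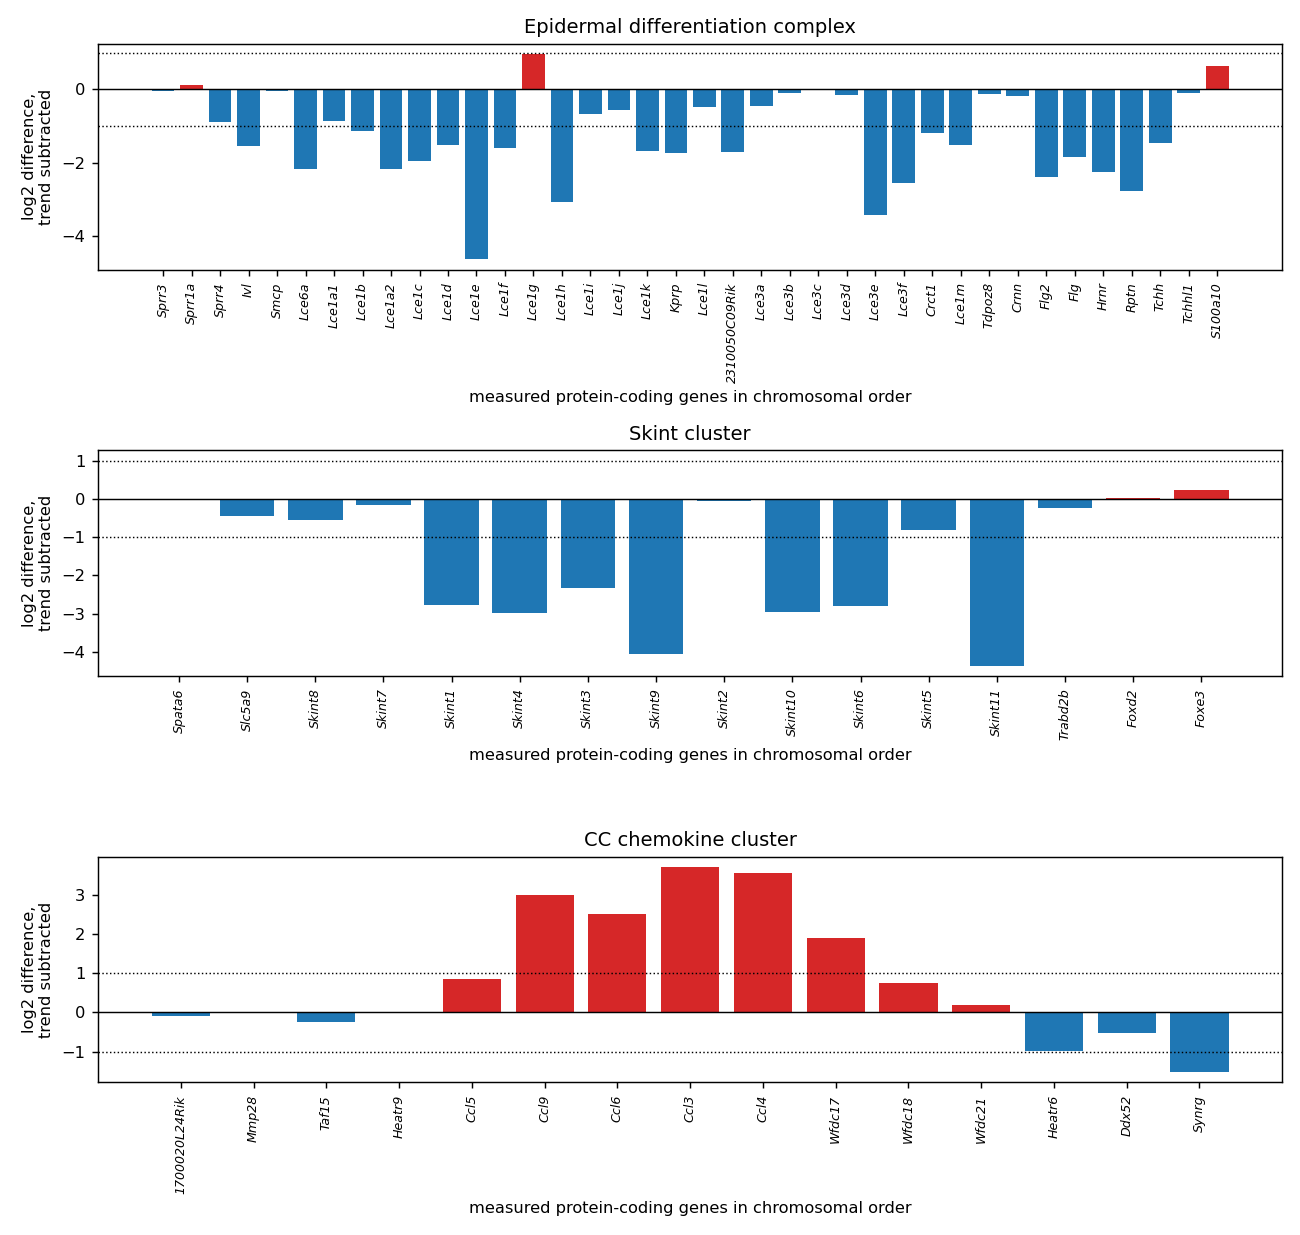
Corrected log2 difference between cFLIP KO and TNF KO (vertical axis) of neighbouring measured protein-coding genes in chromosomal order (horizontal axis), in 3 of the 7 runs, with 2-fold as dotted lines. Of 38 genes in the epidermal differentiation complex 21 are at least 2-fold lower, and the neighbours Lce3c (-0.03) and Lce3d (-0.15) lie near 0.

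Desquamation and lipid genes were lower too. Kallikreins and other desquamation genes had medians of -1.58 and -0.89, with 12 and 8 of 18 at least 2-fold lower and none higher. Klk5, the protease that starts the kallikrein cascade, was at 10.78, 8.16 and 10.42. Cdsn, the corneodesmosin that these proteases cleave, was at 11.97, 9.79 and 11.37. Klk10 (8.66, 8.56 and 8.28) lay above the trend at 0.59 and was the member furthest above 0. Protease inhibitors of the epidermis had medians of -0.87 and -0.40 and split as well. The serpins Serpinb7 (9.21, 5.03 and 8.87) and Serpinb12 (9.69, 6.39 and 7.74) were low, and the secreted antiprotease Slpi (6.68, 8.55 and 6.79) was high. Serpinb2, the urokinase inhibitor, was listed at 11.34 on all 3 arrays.

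Ceramide and lipid barrier genes had medians of -2.02 and -1.29, and 25 of 29 as deposited and 19 of 29 after the trend were at least 2-fold lower, against 16.9% and 9.12% of genes at or above the median signal. Low members belonged to several steps of the pathway. Acer1, an alkaline ceramidase, was at 9.39, 6.59 and 8.74, and Sdr9c7, which oxidises the linoleate of acylceramides, at 10.02, 7.26 and 9.32. The acid lipases Lipn (8.20, 4.31 and 7.05) and Lipk (7.90, 4.67 and 7.21) were the lowest. Pnpla1, the transacylase of acylceramide synthesis, was at 9.40, 6.38 and 8.54. Corrected differences were -0.05 for Sptlc2, which starts sphingolipid synthesis, and -0.29 for Degs1, its desaturase. In fatty acid synthesis Scd2, a desaturase, was at 10.42, 7.31 and 9.70, and the list had medians of -0.77 and -0.35.

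Keratins did not move as one, with medians of -0.35 and 0.05 over 18 measured genes. Krt6a (12.89 on all 3 arrays), Krt16 (12.35, 12.43 and 12.35) and Krt17 (11.27, 11.78 and 12.05), the stress keratins of wounds, were bright in every pool, TNF KO included. Of the 18, 6 were at least 2-fold lower as deposited, and 3 were lower and 1 higher after the trend. Krt78 was at 9.42, 6.28 and 9.07, Krt23 at 8.69, 6.02 and 8.81, and the basal Krt15 at 8.91, 7.08 and 8.92. The suprabasal Krt1, at 13.53, 12.04 and 13.27, was past 2-fold lower as deposited only. Desmosome genes had medians of -0.95 and -0.18. The differentiation-linked Dsg1a (11.24, 9.03 and 10.89) and Dsc1 (12.14, 9.97 and 11.65) and the more widely expressed Dsg2 (7.32, 5.19 and 7.32) were more than 2-fold lower on both scales, and the basal Dsg3 (10.31, 10.17 and 10.31) was not. Hemidesmosome and basement membrane genes had medians of 0.00 and 0.14, with no member of 21 past 2-fold in either direction on either scale.

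Transcription factors of keratinocyte differentiation had medians of -1.07 and -0.36. The lowest were Pou2f3 (9.27, 6.02 and 8.86), Grhl1 (9.35, 7.11 and 8.86), Rora (10.48, 8.22 and 9.88) and Klf4 (10.59, 8.49 and 9.76), all 4 past 2-fold after the trend as well. Trp63, the basal regulator, was at 9.02, 8.52 and 9.15. Among nuclear receptors of the skin, Vdr, the vitamin D receptor, was at 9.14, 6.79 and 9.09, and the clock repressor Nr1d1 at 8.36, 5.41 and 7.49. Slc39a8, a zinc importer, was at 9.10, 5.47 and 8.64. All of these except Trp63 were more than 2-fold lower in cFLIP KO on both scales and less than 1 log2 unit from TNF KO in the double KO.

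Skint genes were the lowest list. They encode butyrophilin-like membrane proteins of keratinocytes and thymic epithelium, and Skint1 is required for the Vgamma5 Vdelta1 T cells that reside in mouse epidermis. Of 11 measured members, 7 were at least 2-fold lower on both scales and none higher, with medians of -2.92 and -2.77. Skint1 was at 8.39, 5.24 and 8.58, and Skint9 at 8.80, 4.42 and 9.21. Skint3 was at 9.36, 6.42 and 9.44, so these 3 genes stood low in cFLIP KO and slightly above TNF KO in the double KO. Skint11 was at 8.12, 3.65 and 7.91, Skint10 at 7.37, 4.32 and 7.57, Skint4 at 6.67, 3.75 and 6.71, and Skint6 at 5.82, 3.20 and 5.79, which completes the 7 low members. The other 4 were dimmer in TNF KO, with Skint5 at 5.65 and 4.88 in TNF KO and cFLIP KO, Skint7 at 4.53 and 4.55, Skint8 at 3.56 and 3.18, and Skint2 at 2.87 and 2.89.

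Some receptor genes of those resident T cells were low too, while the medians over all 21 measured genes of these cells were 0.00 and -0.17. Trgv5, the gamma chain segment of these cells, was at 6.65, 4.27 and 5.88, Trdv4, their delta chain segment, at 6.77, 4.97 and 6.57, and Cd3g at 7.44, 5.48 and 7.41. Cd3e (5.65, 5.24 and 5.43) and Thy1 (7.60, 7.60 and 7.62) were close to their TNF KO values. The summed linear signal of the list was 1147, 843 and 1156. H60c, a ligand of the activating receptor of these cells, was at 9.41, 5.37 and 8.67.

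Among genes of cell division, those of mitosis were low, and those of DNA replication lay closer to TNF KO. Mitosis genes had medians of -0.67 and -0.63, with 15 and 11 of 37 at least 2-fold lower and none higher. The kinetochore genes Ndc80 (6.74 and 4.76) and Nuf2 (6.65 and 5.0) and the spindle motor Kif11 (6.92 and 5.03) were the lowest with Cdc25b (6.60 and 4.82). In the double KO, Ndc80 was at 6.74, Nuf2 at 6.65, Kif11 at 6.76 and Cdc25b at 6.14. Other mitosis genes lay close to TNF KO, Cdc20 being at 7.47 and 7.45 and Plk1 at 6.75 and 6.55. Every one of the 37 was below TNF KO as deposited, and 32 were below it after the trend. The count of 11 of 37 compares with 9.12% of all genes at or above the median signal, and this list was the one whose call depended on the scaling. DNA replication genes had medians of -0.26 and -0.13. After the trend 2 of 35 (5.71%) were at least 2-fold lower, Prim2 (6.88 and 5.62) and Rfc4 (6.01 and 4.77), a share below that 9.12%.

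The medians of several housekeeping pathways lay closer to 0 after the trend was subtracted. Respiratory chain subunit genes had medians of -0.36 as deposited and 0.05 after the trend, with none of 62 past 2-fold after it. Translation initiation and elongation genes had -0.61 and -0.02, ribosome biogenesis genes -0.43 and 0.02, citric acid cycle genes -0.90 and -0.26, and cholesterol synthesis genes -1.15 and -0.51. In the last list Cyp51 was at 9.46 in TNF KO and 7.45 in cFLIP KO. After the trend the medians were 0.15 for the unfolded protein response and 0.16 for NRF2 antioxidant genes. Hypoxia targets had medians of -0.14 and 0.23, with 5 of 21 past 2-fold lower after the trend and none past 2-fold higher. Spliceosome genes had medians of -0.19 and 0.36, with Snrpc (6.02 and 8.07) and Snrpa (7.58 and 9.30) the highest. None of these lists passed 1.5-fold on both scales.

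Markers of other tissues were read for the make-up of the pools. Fibroblast and collagen genes had medians of 0.04 and 0.58, and Col1a1 was at 11.18, 11.68 and 11.33, so this dermal transcript was bright in all 3 pools. Skeletal muscle genes had medians of 0.40 and 0.52, with Acta1 at 7.96, 9.20 and 8.57, whereas the other defining gene, Ckm, was at 6.69 in both pools of the main pair. Of 15 muscle genes, 4 as deposited and 5 after the trend were at least 2-fold higher, and 1 was lower on each scale. Among all genes at or above the median signal, 6.85% and 7.15% were higher. The summed linear signal of the muscle list was 1484, 2227 and 1788. Adipocyte genes had medians of 0.00 and -0.11, with 2 and 1 of 15 at least 2-fold lower and none higher. Among them Fabp4 was at 7.53, 5.75 and 9.37. Hair keratins had medians of 0.11 and 0.05, and after the trend 2 of 17 were past 2-fold lower and 1 past 2-fold higher. Krt71 (9.25, 5.95 and 4.97) and Krt27 (7.73, 6.06 and 5.11) were low in both cFLIP-deficient pools. Alpha-beta T cell, endothelial and melanocyte lists had medians between -0.15 and 0.09 on both scales. Of 14 measured melanocyte genes, 8 were listed at equal values in the main pair. The summed linear signal of the melanocyte list was 990, 534 and 1132. Cd207 (langerin), which marks Langerhans cells, was at 7.22, 6.56 and 7.44. In the mast cell list only Hdc, the histamine-forming enzyme that neutrophils and other myeloid cells also make, was high (6.87, 9.33 and 7.39), while Cpa3 (5.50, 5.04 and 5.50) and Cma1 (4.17, 4.19 and 4.19) were not. The part of tissue make-up in the differences was not tested.

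Families were also read without lists, by the letters of the gene symbol before its first digit, over the 232 families with at least 8 genes at or above the median signal. By corrected median the 8 lowest were Skint (-2.80), Lce (-1.61), Tmprss (-1.15), Cul (-0.89), Cnot (-0.80), Serpinb (-0.78), Klk (-0.78) and Csnk (-0.64). Cul and Cnot genes encode the cullin scaffolds of ubiquitin ligases and subunits of the deadenylase complex and are used by most cells. In both families 4 genes were at least 2-fold lower, of 8 and 11. The highest were Snora (1.73), Ccl (1.68), Trav (1.15), Mir (1.12), Vmn (1.06), Ighv (1.06), Snord (1.01) and Krtap (0.96). A gene entered if it reached the median signal in either pool, which was 26 of 279 genes for Vmn and 139 of 534 for Mir. The rank of such mostly dim families cannot be separated from this selection. Medians over all members, dim ones included, differed for several families. Over all their members, the medians were 0.01 for Mir, 0.01 for Vmn, 0.02 for Ighv, 0.02 for Krtap and 0.15 for Trav, but still 1.65 for Snora, 0.90 for Snord and 0.87 for Ccl. Among the low families they were -2.77 for Skint and -1.52 for Lce, but -0.12 for Tmprss, -0.06 for Serpinb and -0.15 for Klk. Snora and Snord genes are small nucleolar RNAs, most of them within introns of other genes.

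The difference also ran with the genomic length of the gene. The protein-coding genes at or above the median signal, olfactory and vomeronasal receptors left out, were put in 5 equal groups by length on GRCm38.p6. From the shortest group (median 4007 bases) to the longest (107839 bases), the median corrected difference went from 0.18 over 0.05, -0.05 and -0.15 to -0.19. The share at least 2-fold higher went from 10.5% to 1.62%, and the share at least 2-fold lower from 6.20% to 15.5%. Median signal differed little between the groups, from 5.83 to 6.30. The low lists lay at both ends of this scale, late cornified envelope genes with a median length of 1655 bases and Skint genes with one of 64032 bases. Mitosis genes (29534 bases) and ceramide and lipid barrier genes (29692 bases) were longer than neutrophil markers (7253 bases). No measure of RNA quality was read from these files, and the origin of the gradient was not tested.

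**Figure D5:**
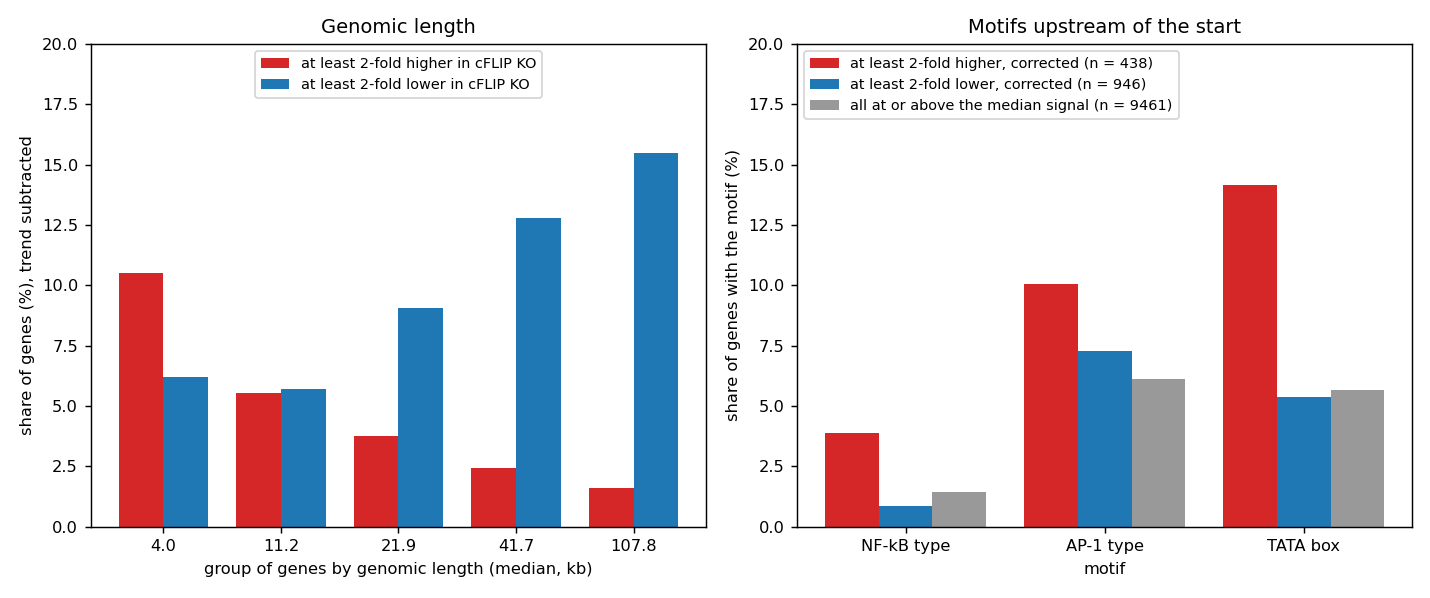
Left, share of genes at least 2-fold higher (red) or lower (blue) in cFLIP KO after the trend, in 5 groups by genomic length. Right, share of genes with an NF-kB-type motif, an AP-1-type motif or a TATA box in the 250 bases upstream of a start, among higher, lower and all genes. Both sides show protein-coding genes at or above the median signal, olfactory and vomeronasal receptors left out. Lower genes reach 15.5% in the longest group against 6.20% in the shortest, and the NF-kB-type motif is upstream of 3.88% of higher and 0.846% of lower genes.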

How the data were processed

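Epidermal RNA of 3 pools was hybridised to Affymetrix Mouse Gene ST arrays, 1 per genotype. The authors used a custom chip definition keyed to ENTREZ genes, robust multiarray background correction (RMA in the submitters' processing notes, version not stated there) and quantile normalization. The deposited values are on a log2 scale, from 2.48 to 13.82, although the log base is not named. Their SD over genes was 2.06 for TNF KO, 1.77 for cFLIP KO and 2.04 for the double KO. Precision is limited by the number of arrays, which have no read depth. The methods' analysis of variance was not repeated, since single arrays leave no residual error.

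Symbols came from the platform annotation, and 4 symbols with several rows were averaged. The 958 rows with no symbol there were left out. Gene types, older symbols, lengths, gene order and promoters came from RefSeq (GRCm38.p6), whose table held 23922 of the genes. The trend was a lowess fit (share 0.3, 3 iterations) against the mean of the pair. Its subtraction and the 2-fold counts were tested on simulated arrays with known changes, and the other steps were not.

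The comparison, the gene lists and the rules were chosen with earlier results of these arrays known. Genes were named from among Cflar and Tnf, the 20 highest and 20 lowest genes after the trend at or above the median signal, the sex-linked and reference genes, the defining markers of cell types and, in each list, the 6 members furthest from 0 on either scale. The highest and lowest skip predicted genes, small RNAs and the olfactory and pheromone receptors. Fcer1g, Clec9a, Clec12a, Elane, Camp, Ngp, Tlr4, Defb1, Krt6a, Mx1, Oas1a, H2-K1, Tgm1, Lce1g, Lce3c, Lce3d, Lce1m, Sprr3, S100a10, Ccl9, Ccl6, Synj2bp, Rbm25, Zc3h12c, Slc35f2, Klk10, Serpinb2, Sptlc2, Degs1, Trp63, Skint5, Skint7, Skint8, Skint2, Thy1, Cdc20 and Plk1 were picked after their values were seen, as were the genes whose promoters are printed. Alternatives were other folds, brighter or protein-coding genes only, scaling by reference genes, repeated quantile normalization, other trends and other summaries of the lists. Trends on the mean of the 3 arrays, members without equal values and the corrected count of protein-coding genes were added after the data were seen. Trends were fitted with statsmodels 0.14.6 and figures drawn with Matplotlib 3.10.9, under Python 3.11.15, NumPy 2.4.6 and pandas 2.3.3.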

Additional observations from a re-analysis of the deposited data

Results flagged for a closer look

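The rows with no gene symbol entered no comparison above. Of 958 such rows, 59 (6.16%) stood at least 2-fold above TNF KO in cFLIP KO as deposited, and 67 (6.99%) stood at least 2-fold below it, with differences from -3.75 to 2.63. Over all genes with a symbol the shares were 3.88% higher and 9.15% lower, and over the brighter ones 6.85% and 16.9%. The 59 were singled out only because they lie outside the named genes. Between the double KO and TNF KO, 7 of the 958 rows were at least 2-fold higher.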

How the results depend on the processing

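With 1 array per genotype, no value has a replicate error, and a difference between the pools cannot be told apart from one between their animals, sexes or arrays. No paired analysis was possible because each genotype had 1 array. The count of genes higher as deposited was 2575 at 1.5-fold, 277 at 3-fold, 1893 when the arrays were scaled to reference genes and 536 over protein-coding genes other than receptors. The count of lower genes was 3723 at 1.5-fold, 822 at 3-fold, 1390 with reference genes and 1161 after repeated quantile normalization. The reference genes had a mean difference of -0.28, so this scaling lifts every gene. After the trend, 564 protein-coding genes were higher, and other trends gave 915 to 1008 higher and 850 to 1193 lower genes. Restricted to members at or above the median signal, the median was 1.52 after the trend for innate receptors, and 1.64 as deposited and 1.91 after the trend for the Schlafen family. Repeated quantile normalization gave -0.99 for kallikreins and -1.32 for ceramide and lipid barrier genes, and the mean of the Skint members was -2.24 as deposited and -2.16 after the trend. Of 120 alternative values of the 10 lists past 1.5-fold on both scales, 115 stayed past it. The other 5 were all of mitosis genes, with -0.39 with reference genes, -0.52 after repeated quantile normalization, -0.56 with a narrower lowess, -0.46 with the trend on the mean of TNF KO and the double KO and -0.57 with the trend on the mean of the 3 arrays. The causes of these shifts were not tested, and none of the 10 lists changed its direction. Some of the 120 values could not fall short. Leaving out members at equal values changes nothing in a list that has none, and scaling to reference genes can only raise the 4 higher lists. A member dim on 1 array met the signal limit only through the array where it was higher. Under at least 1 alternative, 48 medians of other lists changed sign.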
